A study of Mus musculus with 258 samples.

Results

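Long loops are the autosomal chromatin loops whose anchors lie more than 500 kb apart, measured from the first base of the left anchor to the first base of the right anchor, in the Hi-C loop lists of resting and activated mouse B cells. The rule uses position alone, with no contact count. It found 329 of the 6181 loops of both lists: 48 of 1866 in the resting list (1814 of them on autosomes) and 281 of 4315 in the activated list (4209 on autosomes). The B cells came from spleens of C57BL6/J mice of WT genotype, aged 6 to 8 weeks, and were isolated by negative selection. Resting cells were taken at 0 h without treatment, and activated cells after 72 h with lipopolysaccharide (LPS, 50 µg/mL), anti-CD180 (0.5 µg/mL) and interleukin 4 (IL-4, 2.5 ng/mL), which together drive quiescent B cells into growth and division. The labels assign 8 Hi-C libraries to the resting and 26 to the activated group, but each state is represented by 1 list from a pooled map. There are thus no replicates. No p-values were computed, and the 95% intervals cover counting error or the spread over loops, not differences between mice. The lists hold no expression values, so the labelled cell type was not checked against markers. A loop missing from a list was not called, which does not show that it was absent.

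In Hi-C, DNA ends that lie close together in the nucleus are ligated and sequenced as pairs, so that a loop shows as a point of the contact map with more pairs than its surroundings, and its anchors are the DNA at either end. As background, most loops of mammalian genomes join sites bound by the protein CTCF in facing orientation, and they form when the ring complex cohesin draws in DNA until such sites stop it. Contacts become rarer with distance, so a long loop is called over few expected contacts. Each loop here has an observed contact count at its 5 kb pixel and 4 expected counts from its surroundings. The donut background is a ring around the pixel, the lower left background lies towards the diagonal of the map, and the horizontal and vertical backgrounds are strips through either anchor. Strength below is the observed count divided by the donut expected count unless another background is named.

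Activated cells had 281 long loops and resting cells 48. The ratio of these counts was 5.85, with an exact 95% interval of 4.30 to 8.13. The ratio was 3.95 (3.46 to 4.52) for autosomal loops of 200 to 500 kb, with an interval that overlaps that of long loops. Long loops made up 6.68% (Wilson interval 5.96 to 7.47) of autosomal loops in the activated list and 2.65% (2.00 to 3.49) in the resting list. Within the long loops the ratio did not keep growing with length. It was 5.93 (3.41 to 11.04) from 500 to 600 kb, 6.58 (3.57 to 13.3) up to 750 kb, 10.7 (4.64 to 30.1) up to 1000 kb, 4.71 (2.05 to 12.6) up to 1500 kb and 2.00 (0.808 to 5.40) above, and these intervals overlap. Median length was 707.5 kb (610 to 930) in the resting and 685 kb (650 to 725) in the activated list, with overlapping intervals. The upper quartile was 1130 kb in the resting and 880 kb in the activated list, and 15 of 48 resting and 49 of 281 activated long loops exceeded 1000 kb. The activated map had 1.56 times the donut expected count at autosomal loops found in both lists. This ratio was taken as the depth ratio, since library totals are unknown and depth itself was not measured. When activated counts were divided by this ratio and held to the lowest count and the lowest ratios of the resting list, 184 long loops passed, for a ratio of 3.83 (2.78 to 5.38). The same step, added after seeing the data, left 1026 activated loops of 200 to 500 kb, for a ratio of 3.68 (3.22 to 4.21). The ratios of the length classes were thus closer at the lowered depth, but the step does not treat the classes alike. Its floor on contacts falls harder on long loops, whose activated median was 33 contacts against 51. It also applies 1 depth ratio to all lengths, while pairs with a long loop had an expected ratio of 1.23 (1.06 to 1.59).

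**Figure D1:**
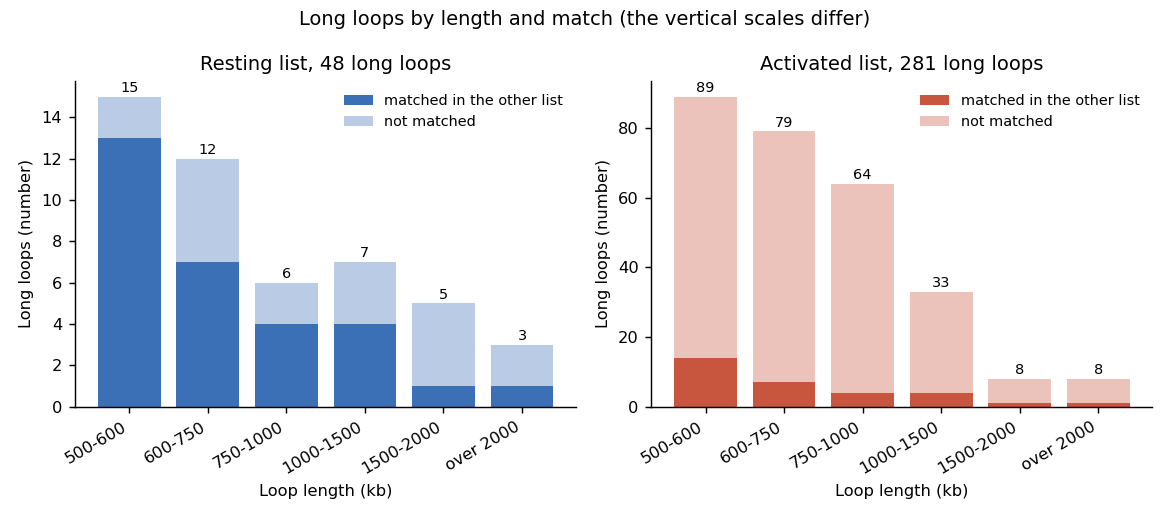
Number of long loops (vertical axis, different scale in each panel) by length class in kb (horizontal axis) in the resting (left) and activated list (right), with the part matched in the other list in full colour. Most resting long loops of 500 to 600 kb were matched (13 of 15), while matched loops were a small part of every activated class (14 of 89 in the first).

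Each of the 19 autosomes held more long loops in the activated list. Chromosomes 1, 13 and 12 held the most in activated cells, with 30, 27 and 24, and chromosome 17 the fewest with 5. As a share of a chromosome's activated loops, long loops ranged from 3.07% on chromosome 17 to 14.8% on chromosome 13, and they passed 10% also on chromosomes 12 (13.2%), 14 (10.9%) and 1 (10.3%). Resting long loops were less evenly spread: 12 of the 48 were on chromosome 13 and 6 on chromosome 12, against 0 to 3 on each of the others. Of the 12, 9 belong to 1 group joined by anchors, described below. As shares of the resting loops of these chromosomes they were 16.4% and 8.96%, so both chromosomes had high shares in each list. Their spans covered 30.5 Mb in the resting list, which is 1.24% of the autosomal length up to the last loop of each chromosome, and 205.5 Mb (8.38%) in the activated list. At the limit of the rule, the shortest resting long loops were chr9:32390001-32900000 (505 kb, strength 5.18) and chr5:129580001-130095000 (510 kb, 3.23), and the longest left out were chr4:8520001-9025000 and chr10:43290001-43795000 (both 500 kb, 3.66 and 4.24). In the activated list they were chr1:107785001-108295000 and chr3:52060001-52570000 (both 505 kb, 4.45 and 3.42) inside, and chr1:64000001-64500000 and chr7:126160001-126660000 (both 495 kb, 3.82 and 4.73) outside. Positions are 1-based on build mm9 and run from the first base of the left to the last base of the right anchor.

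A larger share of resting than of activated long loops was called in the other list. The resting list was the smaller one, which limits the share of activated loops that can be matched. It held 48 long loops against 281, and 279 loops of 200 to 500 kb against 1101, so the limit differs between length classes. A loop was matched when both its anchors lay within 20 kb of those of a loop in the other list. Matches were found for 30 of 48 resting long loops (62.5%, Wilson interval 48.4 to 74.8), against 64.5% of resting autosomal loops of all lengths and 83.5% (78.7 to 87.4) of those of 200 to 500 kb. For the activated list, 31 of 281 long loops were matched (11.03%, 7.88 to 15.2), against 27.9% of activated autosomal loops of all lengths and 21.1% (18.8 to 23.6) of those of 200 to 500 kb. One of the 31 activated loops matched the 500 kb resting loop on chromosome 10 that lies just outside the rule. Without chromosome 13, which held 12 resting long loops, 77.8% (61.9 to 88.3) of the resting long loops were matched, and over 750 kb the share was 47.6%. With anchors not widened, so that they had to overlap directly, the shares fell to 20.8% of resting and 3.56% of activated long loops.

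Unmatched long loops of the 2 lists differed in what the other list held at the same place. Neither anchor was in use in the resting list for 193 of the 250 unmatched activated long loops (77.2%, 71.6 to 82.0), 1 was for 47 and both were for 10. Among unmatched activated loops of up to 500 kb, 67.0% (65.3 to 68.8) had neither. No resting loop of any length overlapped the span of 180 of the 250 (72.0%, 66.1 to 77.2), so the resting list was empty over the whole stretch of DNA that these loops enclose. Outside the spans of its own long loops the resting list held 0.711 shorter loops per Mb. The share of empty spans among other stretches of like length was not computed, so the emptiness cannot be called particular to these loops. Of the 18 unmatched resting long loops, both anchors were in use in activated cells for 11 (61.1%, 38.6 to 79.7), 1 was for 5 and neither was for 2 (11.1%, 3.10 to 32.8). A single group on chromosome 13 supplied 9 of these 11. Among unmatched resting loops of up to 500 kb, 38.5% (34.8 to 42.4) had neither. The activated list was the larger one (4209 against 1814 autosomal loops), and the part of list size in this contrast was not tested. In the activated list matching also went with the number of enriched pixels that the caller merged into a loop. There 0 of 56 long loops of 1 pixel were matched (Wilson interval up to 6.42%), 5 of 90 of 2 pixels, 5 of 49 of 3 pixels and 21 of 86 of 4 or more (24.4%, 16.6 to 34.5). In the resting list the order was not steady, with 2 of 5 loops of 1 pixel matched, 10 of 19 of 2, 9 of 10 of 3 and 9 of 14 of 4 or more. Activated long loops of 1 pixel made up 19.9% (15.7 to 25.0), against 11.2% of activated autosomal loops of all lengths; in the resting list they were 10.4% (4.53 to 22.2), against 14.6%. The part of pixel number in the matching was not tested.

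Long loops shared anchors with each other in a minority of cases, and where they did, they mostly ran from the anchor in 1 direction. Anchors within 10 kb were merged, which left 80 anchors for the resting and 524 for the activated long loops. In the resting list 12 anchors (15%, 8.79 to 24.4) served 2 or more long loops, against 14.3% (13.1 to 15.6) of the anchors of shorter loops. In the activated list 33 did (6.30%, 4.52 to 8.71), against 23.1% (22.1 to 24.2), so activated long loops shared anchors among themselves less often than shorter loops did, with intervals that do not overlap. There were also fewer of them to share an anchor (281 against 3928), and the part of this number was not tested. Thus 21 of 48 resting (43.8%, 30.7 to 57.7) and 70 of 281 activated long loops (24.9%, 20.2 to 30.3) shared an anchor with another long loop. Over 750 kb the activated share was 11.5%. Of the 21 resting loops, 9 are in the group on chromosome 13. The loops of such an anchor all ran to the same side at 9 of 12 resting anchors (75%, 46.8 to 91.1) and at 30 of 33 activated anchors (90.9%, 76.4 to 96.9). Among anchors of 2 or more loops of up to 500 kb the share was 66.2% (61.6 to 70.5) and 65.9% (63.4 to 68.3), so the activated long loops were above it with intervals that do not overlap. The number of loops per anchor was not held equal here, and 28 of the 33 activated anchors served just 2 long loops. The part of this number in the direction was not tested. Of the 33 activated anchors, 13 were also an anchor of a long loop in the resting list and 5 of these served 2 or more there. At the remaining 20 the resting list had no loop anchor of any length. This share was not computed for all 524 anchors of activated long loops, so it cannot be called particular to shared anchors.

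No activated anchor served more than 3 long loops, and 5 served exactly 3. The named-loop rule picks 2 of them, but since they tie all 5 are described. The 5 anchors held 15 activated and 8 resting long loops, and 7 loops in each list were matched. Over all long loops 11.03% of activated and 62.5% of resting ones were matched. On chromosome 3 the anchor at 52060001 to 52065000 lies just upstream of Foxo1, which encodes a transcription factor of B cell development and quiescence. In the resting list its loops had lengths of 585 kb (82 contacts, strength 3.88) and 710 kb (53 contacts, 3.08). In the activated list they had lengths of 505 kb (70 contacts, 3.42), 585 kb (93, 4.34) and 715 kb (85, 4.64), so a shorter loop joined the 2 that were already called. In all 5 loops the horizontal strip was fuller than the vertical one. The horizontal expected count was 34.6 and 30.8 in the resting and 37.6, 43.7 and 39.0 in the activated loops, and the vertical one 20.0 and 15.6, and 19.1, 20.2 and 17.1.

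On chromosome 16 the anchor at 23980001 to 23995000 lies at the start of Bcl6, which encodes the repressor that directs the germinal centre programme of B cells. Its resting loops, 1080 kb (59 contacts, strength 4.60) and 1280 kb (37 contacts, 3.74), were both matched by activated loops of 1085 kb (63, 4.74) and 1280 kb (41, 3.57). The activated list added an unmatched loop of 645 kb with 31 contacts (4.41). On chromosome 15 the anchor at 61810001 to 61820000 lies at Myc, which encodes a transcription factor that drives cell growth. This was the 1 anchor of the 5 whose long loops ran both ways. To the left, a resting loop of 570 kb (39 contacts, 3.12) matched an activated loop of 565 kb (41, 3.21), and the activated list added a loop of 825 kb (37, 3.43). To the right, the resting list reached 1675 kb away (28 contacts, 3.36), to 63490000, and the activated list 820 kb away (42 contacts, 3.97), to 62640000. Neither of these right-hand loops was matched. The list of the other state therefore named different partners for the same anchor on this side.

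The anchors on chromosomes 1 and 13 each had 1 resting long loop, which was matched, and 3 activated ones. On chromosome 1 the anchor at 63700001 to 63715000 had a resting loop of 775 kb (22 contacts, 3.99), matched at 785 kb in activated cells (64 contacts, 5.09). The activated list added loops of 1045 kb (21, 4.85) and 1335 kb (23, 5.81). On chromosome 13 the anchor at 111170001 to 111190000 had a resting loop of 1020 kb (29 contacts, 5.64), matched at 1030 kb (58, 6.44), and here the added activated loops were shorter, at 845 kb (40, 5.97) and 570 kb (50, 4.24). Of the 15 activated loops at the 5 anchors, 8 were unmatched, against 250 of all 281 activated long loops. Of the 8 resting ones 1 was unmatched, against 18 of all 48. Gene positions are background knowledge of mm9 and were not read from an annotation.

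**Figure D2:**
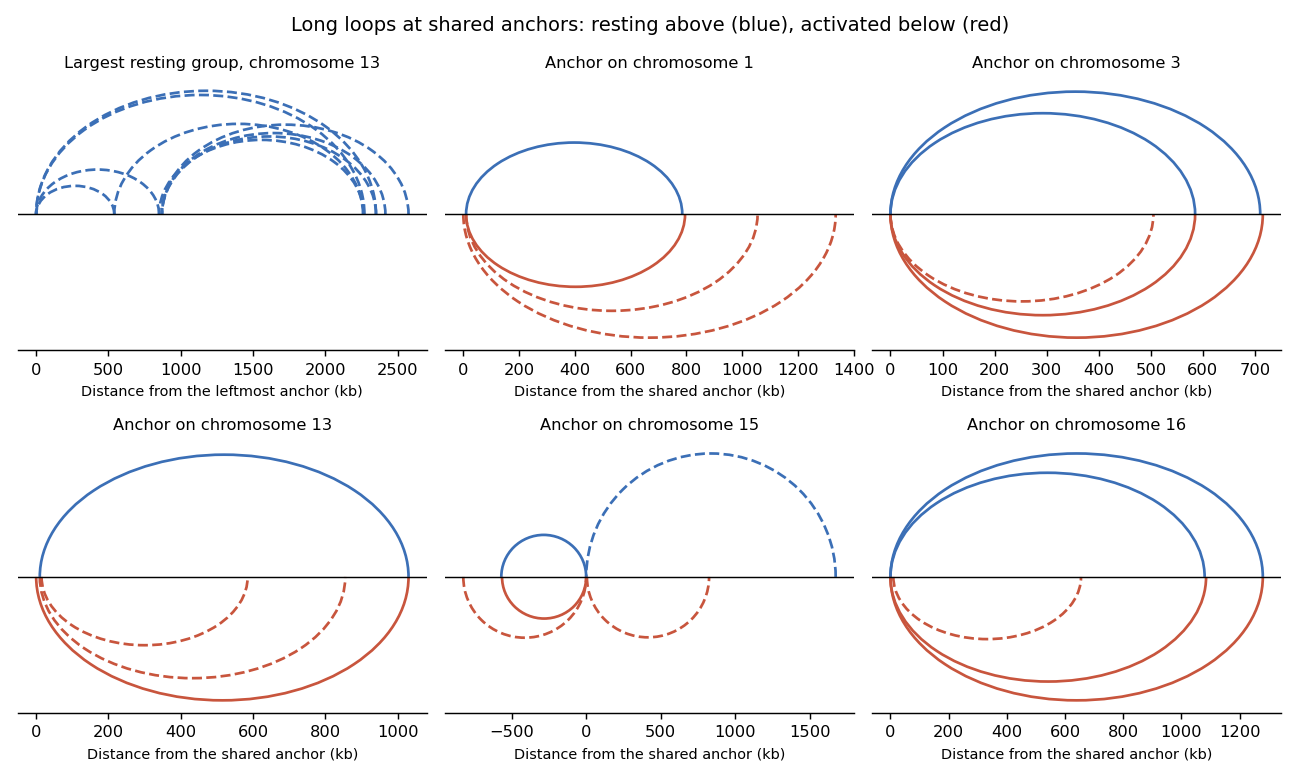
Long loops drawn as arcs between their anchors by distance in kb (horizontal axis) at the largest resting group and at the 5 anchors with 3 activated long loops. Resting loops lie above the line and activated loops below, and solid arcs are matched and dashed arcs unmatched loops. Arcs fan out to 1 side in 4 of the 5 anchor panels, and the group on chromosome 13 has arcs above the line alone.

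Loops joined end to end were rare. The longest chain had 2 loops in both lists, and 6 resting and 7 activated long loops took part in such joints. In resting cells a chain ran through the Myc anchor from 61240001 by way of 61810001 to 63490000 (span 2250 kb), and 2 more lay in the chromosome 13 group. In activated cells chains ran through the Myc anchor (spans 1655 and 1395 kb, sharing the right-hand loop), on chromosome 12 (40980001 to 45275000, 4295 kb) and on chromosome 7 (80800001 to 82260000, 1460 kb). The chromosome 7 chain joined loops of 700 kb (40 contacts, strength 7.02) and 740 kb (52 contacts, 5.05), and neither had an anchor in the resting list. A closed triangle, in which the 2 loops of a chain and the loop over both are all called, occurred 2 times in the resting list, both in the chromosome 13 group, and 0 times in the activated list.

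That group, chr13:21260001-23840000, lies at the Hist1 clusters of histone genes and was the largest set of long loops joined by anchors in either list. It held 9 resting long loops over 8 merged anchors, and 0 of the 9 were matched. The largest activated group held 4 loops. Lengths ran from 540 to 2350 kb with a median of 1545 kb, and 7 of the 9 exceeded 1000 kb, against 8 of the 39 resting long loops elsewhere. Its busiest anchor, at 21260001, sent 4 loops to the right, of 540, 850, 2270 and 2350 kb with 40, 44, 53 and 55 contacts and strengths of 3.79, 3.55, 4.57 and 5.23. The anchor at 22130001 sent 3, of 1480, 1545 and 1705 kb with 44, 40 and 23 contacts (4.09, 4.66 and 6.21). At the first anchor the longer loops thus had no fewer contacts than the shorter ones. Both anchors of all 9 loops were anchors of some loop in the activated list, where the 8 loops of the region were 330 kb long at most and used 12 anchors, against 14 for the 19 resting loops. The anchors were thus in use in both lists, and the long connections between them were called in resting cells alone. Outside the group, 12 of 39 resting long loops shared an anchor and 9 of 39 were unmatched.

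Many long loops enclosed a shorter loop. A shorter loop (up to 500 kb, same list) lay within the span in 28 of 48 resting (58.3%, 44.3 to 71.2) and 145 of 281 activated long loops (51.6%, 45.8 to 57.4). Of 200 to 500 kb loops, 40.5% (34.9 to 46.4) and 47.0% (44.0 to 49.9) lay over a loop of up to 200 kb, with intervals that overlap those of long loops in each list. Most enclosed few: of the activated long loops 136 held 0 shorter loops, 67 held 1, 33 held 2, 20 held 3 and the most was 8. Enclosing more loops did not go with greater length in the activated list, where the median length was 747.5 kb for long loops with 0 inside, 700 kb with 1 and 620 kb with 2 or more. Shorter loops seldom crossed an end of a long loop. Summed over long loops, 67 resting shorter loops lay inside and 3 crossed (4.29%, 1.47 to 11.9), and 319 activated ones lay inside and 8 crossed (2.45%, 1.24 to 4.75). For 200 to 500 kb loops over loops of up to 200 kb the crossing share was 1.67% (0.568 to 4.78) and 3.77% (2.71 to 5.22), and these intervals overlap those of long loops in each list. Spans of resting long loops held 1.44 shorter loops per Mb against 0.711 elsewhere, whereas spans of activated ones held 1.40 against 1.62 elsewhere.

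The activated loops over the most shorter loops held 8 each: chr3:30500001-32615000 (2110 kb), chr4:63080001-63610000 (525 kb) and chr11:11355001-11875000 (515 kb). The first rested on 15 contacts and an expected count of 1.74, the others on 39 and 37 contacts at strengths of 4.26 and 4.70. The leading resting loops were chr13:22130001-23840000 with 6 inside, and chr8:10575001-11190000 and chr13:21260001-23615000 with 5 each. The ends of long loops were often used by shorter loops too: both ends in 7 resting and 44 activated long loops, 1 end in 18 and 116, and neither in 23 and 121. A row of shorter loops laid end to end from 1 anchor to the other was found under 2 resting (4.17%, 1.15 to 13.98) and 14 activated long loops (4.98%, 2.99 to 8.19), with 2 shorter loops in the row in each case but 1 activated loop, which had 3. Long loops lay over another long loop in 11 resting (22.9%, 13.3 to 36.5) and 39 activated cases (13.9%, 10.3 to 18.4).

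Median ratios of long loops were higher than those of 200 to 500 kb loops against each of the 4 backgrounds. Median strength was 4.01 (3.74 to 4.47) for resting and 4.30 (4.15 to 4.48) for activated long loops, against 3.34 (3.23 to 3.48) and 3.27 (3.23 to 3.33) for 200 to 500 kb loops. Against the lower left background the medians of long loops were 3.93 (3.58 to 4.31) and 4.04 (3.90 to 4.26), against the horizontal 3.02 (2.74 to 3.51) and 3.42 (3.25 to 3.58), and against the vertical 3.23 (3.06 to 3.71) and 3.50 (3.31 to 3.68). For the resting horizontal median the interval overlapped that of 200 to 500 kb loops (2.71, 2.62 to 2.80). The horizontal and vertical strips were the strictest, as they also were for loops of 200 to 500 kb. The lowest of the 4 ratios was the horizontal one in 25 resting and 136 activated long loops, the vertical one in 20 and 116, the lower left one in 3 and 29 and the donut one in 0 of either. In resting and activated loops of 200 to 500 kb it was the horizontal one in 44.4% and 50.1% and the vertical one in 50.9% and 45.1%. The lower left one was lowest in 4.66% and 4.72% of them and the donut one in 0%. The median of the lowest ratio was 2.81 (2.53 to 3.03) in resting and 3.10 (3.00 to 3.22) in activated long loops. In loops of up to 500 kb it was 2.08 and 2.10. All 4 ratios exceeded 3 in 17 of 48 resting (35.4%) and 158 of 281 activated long loops (56.2%). This share was not computed for shorter loops, nor was the median of the lowest ratio for loops of 200 to 500 kb. The horizontal expected count was more than 1.5 times the vertical one in 9 resting and 18 activated long loops, and the reverse held in 2 and 12. Most of the 9 resting loops were in the chromosome 13 group or at the Foxo1 anchor on chromosome 3. Shorter loops were not counted in this way, so the asymmetry cannot be called particular to long loops.

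**Figure D3:**
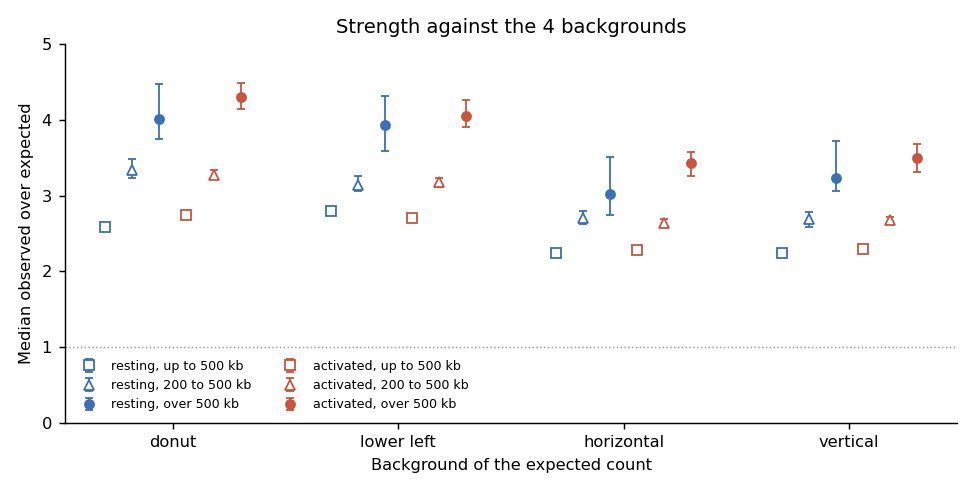
Median ratio of observed to expected contacts (vertical axis) against each background (horizontal axis) for loops of up to 500 kb, of 200 to 500 kb and of over 500 kb, with 95% order-statistic intervals. Long loops (filled circles) lie highest in each list and background, and the horizontal and vertical medians lie below the donut ones.

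The higher strength of long loops went with their low expected counts. The median donut expected count was 10.3 (8.44 to 11.6) for resting and 8.23 (7.40 to 8.96) for activated long loops, against 13.8 and 15.9 for 200 to 500 kb loops, and the median observed count was 39.5 (33 to 44) and 33 (32 to 36), against 46 and 51. The weakest activated loop also stood higher at the lowest expected counts. Among activated long loops the lowest strength was 4.47 at a donut expected count under 5, 3.07 from 5 to 10, 2.43 from 10 to 15 and 2.45 from 15 to 25, and among those of 200 to 500 kb it was 4.27, 2.85, 2.32 and 2.01. Within these strata the activated medians of the length classes lay closer together than over all loops. Under 5 they were 5.91 (5.60 to 6.33) for 59 long and 5.40 (4.55 to 6.16) for 17 loops of 200 to 500 kb. From 5 to 10 expected contacts they were 4.29 (4.14 to 4.48) for 120 long and 4.10 (4.01 to 4.26) for 180 loops of 200 to 500 kb, with overlapping intervals. From 10 to 15 they were 3.56 (3.44 to 3.84) for 77 and 3.30 (3.24 to 3.41) for 301, where the intervals do not overlap. From 15 to 25 they were 3.43 (3.05 to 4.11) for 24 and 3.07 (3.00 to 3.15) for 477. Intervals overlapped in each of these strata but that from 10 to 15. In the resting list they were 4.21 (3.89 to 4.51) and 3.90 (3.79 to 4.16) from 5 to 10, and 3.77 (3.23 to 4.47) and 3.36 (3.26 to 3.52) from 10 to 15, with overlapping intervals. Resting medians under 5, at 6.21 for 5 long and 5.30 for 4 loops of 200 to 500 kb, rest on too few loops for an interval. Whether the limits of the lists set the difference in strength was not tested.

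**Figure D4:**
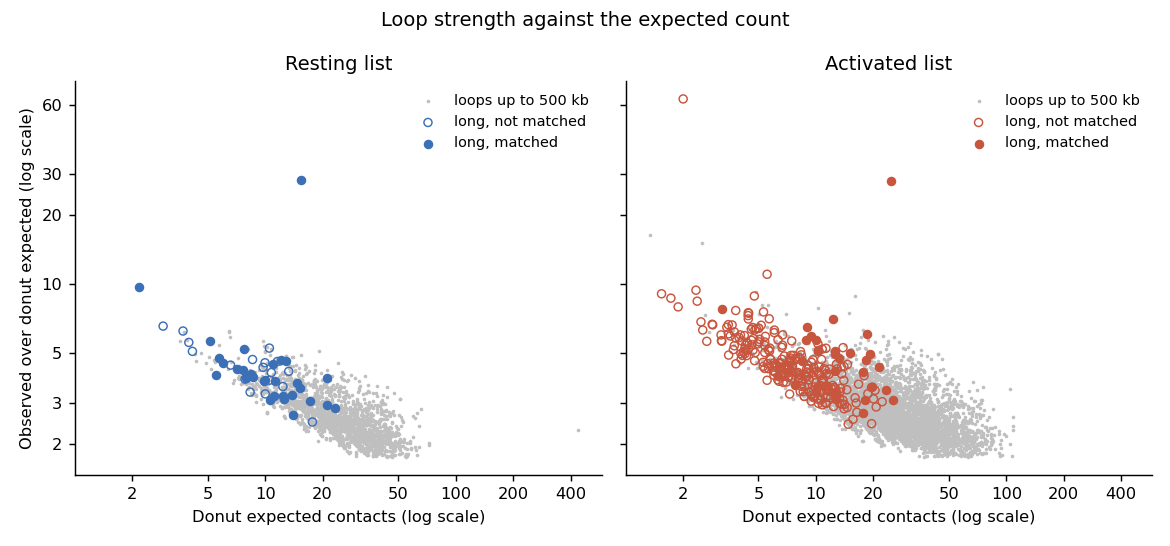
Observed over donut expected count (vertical axis) against the donut expected count (horizontal axis), both on log scales, for each loop of the resting (left) and activated list (right). Long loops (circles, filled where matched) lie in the upper left part of the cloud of shorter loops (grey), and the lower edge of the cloud lies higher at lower expected counts. The loops near 28 on chromosome 1 and at 64.1 on chromosome 4 stand apart.

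Some long loops rested on very low expected counts. The lowest of the 4 expected counts was under 5 in 7 of 48 resting (14.6%, 7.25 to 27.2) and 63 of 281 activated long loops (22.4%, 17.9 to 27.6), against 0.772% and 2.21% of autosomal loops of all lengths. Long loops made up 67.7% of the 93 activated loops with so low a count. In 26 of the 63 all 4 expected counts were under 5. These 63 loops had a median of 23 contacts (range 14 to 129), a median strength of 5.79 (5.50 to 6.27) and a median length of 880 kb (760 to 1105). The other 218 had a median of 37 contacts, a strength of 4.04 (3.92 to 4.18) and 655 kb (630 to 690). Of the 63, 23 had 1 pixel (36.5%, 25.7 to 48.9, against 15.1% of the 218), and 1 was matched in the resting list (1.59%, 0.281 to 8.46, against 13.8% of the 218). Among the 7 resting ones, 2 were matched. Without loops of low expected count the ratio of long loop counts was 5.32 (3.79 to 7.62).

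The lowest expected counts belonged to the longest loops among others. The longest activated loop, chr13:85775001-89690000 (3910 kb), had 14 contacts over expected counts of 1.55 (donut), 1.41, 1.81 and 1.86 (lower left, horizontal and vertical), and its strength of 9.03 had an exact Poisson interval of 4.94 to 15.2. The next, chr12:41565001-45275000 (3705 kb) and chr7:83070001-85715000 (2640 kb), had 19 contacts each at strengths of 5.15 (3.10 to 8.04) and 5.97 (3.60 to 9.33). The loop chr3:30500001-32615000, with the lowest expected count of all (1.30, lower left), had 15 contacts and a strength of 8.64 (4.84 to 14.3). In the resting list the lowest counts were at chr7:46520001-48240000 (21 contacts, lowest expected count 1.37, strength 9.64, interval 5.97 to 14.7), chr13:36105001-37405000 (19 contacts, 2.91, strength 6.52) and chr13:22130001-23840000 (23 contacts, 3.09, strength 6.21). The chromosome 7 loop was matched in activated cells, with 25 contacts at a strength of 7.77. With 14 to 25 contacts, such intervals are wide, and the lower bound of each one given here was above 3. They take the low expected counts as exact. The loops are also in the lists because of a high ratio, so these bounds do not test the loops.

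High strengths did not all come from few contacts. The loop chr4:145145001-146895000 of the activated list had 129 contacts over expected counts of 2.01, 1.42, 3.47 and 4.93, so its ratio was 64.1 against the donut, 90.6 against the lower left, 37.2 against the horizontal and 26.2 against the vertical background. It was 1 pixel, and it neither enclosed a shorter loop nor had an anchor in the resting list. The loop chr1:85270001-87490000, called in both states, had 437 and 691 contacts over donut expected counts of 15.4 and 24.7. Its ratios were 28.4 and 27.9 against the donut but 14.3 and 18.98 against the horizontal and 15.8 and 11.7 against the vertical background, so the order of the states changed with the background. It also enclosed no shorter loop in either list. The activated loop chr8:73655001-74385000 (61 contacts) stood at 10.99 times the donut and 11.3 times the vertical but at 5.27 and 4.68 times the lower left and horizontal expected counts. Placement of reads in repeated sequence was not tested for these loops.

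Long loops found in both lists differed little in strength. The lists gave 31 one-to-one pairs with a long loop, 10 of them at the same pixel, and the median log2 ratio of strengths (activated over resting) was 0.16 (order-statistic interval 0.04 to 0.27). Strength was higher in activated cells in 24 of the 31 (77.4%, 60.2 to 88.6), against 56.9% (54.0 to 59.8) of 1135 pairs of shorter loops, whose median was 0.05 (0.03 to 0.08). Medians against the lower left, horizontal and vertical backgrounds were also above 0, but with intervals that include 0. They were 0.15 (-0.11 to 0.26), 0.09 (-0.16 to 0.25) and 0.09 (-0.03 to 0.24). The 24 of 31 were counted against the donut alone. Fewer pairs were higher in activated cells against each other background, and the fewest against the horizontal one. Counting intervals of single pairs lay above 0 for 3 of 31 and below 0 for 0, against 7.46% and 2.92% of all autosomal pairs. The 3 were chr13:98000001-98710000 (30 and 86 contacts, strengths 4.23 and 6.98, log2 ratio 0.72, 0.11 to 1.37), chr3:52060001-52775000 at the Foxo1 anchor (53 and 85 contacts, 3.08 and 4.64, 0.59, 0.08 to 1.12) and chr9:41030001-41760000 (34 and 112 contacts, 4.03 and 6.06, 0.59, 0.02 to 1.19), which was chosen after its values were seen. The pair chr11:44420001-45355000 had the same log2 ratio of 0.59 with an interval that included 0 (-0.03 to 1.22), and its expected count was lower in activated cells (11.2 and 8.86).

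The lowest log2 ratios among the pairs had intervals that included 0. They were chr12:12420001-13225000 (strengths 4.50 and 3.62, log2 ratio -0.31, -1.13 to 0.51), chr7:46520001-48240000 (9.64 and 7.77, -0.31, -1.21 to 0.60) and chr10:43290001-43795000 (4.24 and 3.55, -0.26, -1.02 to 0.52). No pair with a long loop differed by more than 2-fold in either direction, against 0.257% of all autosomal pairs higher and 0% lower. At these pairs the activated map had 1.37 times the observed (1.13 to 1.60) and 1.23 times the expected count (1.06 to 1.59), against 1.625 (1.59 to 1.65) and 1.56 (1.53 to 1.59) at shorter pairs.

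**Figure D5:**
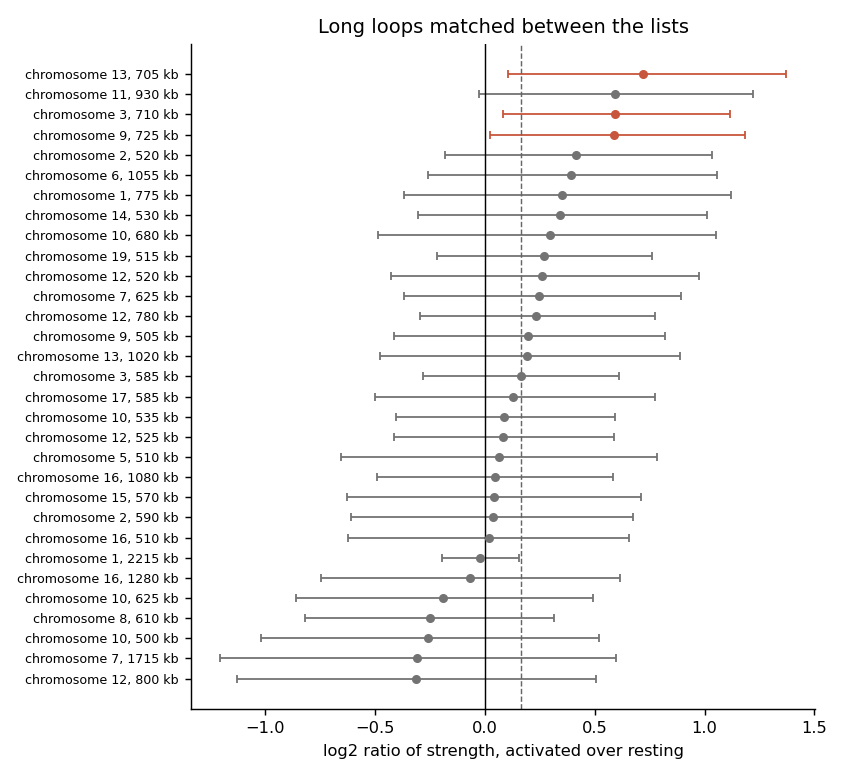
log2 ratio of strength, activated over resting (horizontal axis), for each of the 31 pairs with a long loop, named by chromosome and resting length in kb (vertical axis), with exact 95% counting intervals. The 3 pairs in red have intervals above 0, and the dashed line marks the median of 0.16.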

How the data were processed

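In situ Hi-C libraries of resting and 72 h activated B cells were represented by 1 deposited loop list per state. The submitters' processing notes name BWA, Juicer and build mm9 without versions. The loop caller is not given in these sources. Which libraries entered each pooled map is not stated, and since the activated list carries no time, it was taken as made from the 72 h WT map that the deposited readme names. Per the file headers, each loop has an observed contact count (whole and not normalized), 4 expected counts and 4 q-values, and the authors deposited these values and the anchor positions as they are used here. The 224 libraries of other states and assays were not used here.

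Computed here, with Python 3.11.15, numpy 2.4.6, pandas 2.3.3, scipy 1.17.1 and matplotlib 3.10.9: length was the start of the right minus the start of the left anchor. Loops were matched when both anchors, widened by 10 kb, overlapped those of a loop of any length in the other list by 1 bp or more, and paired one to one by the smallest summed distance. Anchors with a gap of at most 10 kb were merged. A shorter loop was inside a span widened by 10 kb. Shares have Wilson intervals, ratios of counts exact conditional binomial ones (expected counts taken as fixed), single loops exact Poisson ones and medians order-statistic ones over loops. The last treat loops as independent although some share anchors. Library totals are unknown, and the depth ratio is the median ratio of donut expected counts over 1166 autosomal pairs. Measures of matching, sharing, nesting and intervals were tested on simulated lists with known answers. Named loops were, per list, the 3 longest, the 3 strongest with at least 30 contacts, the 3 with the lowest expected count, those at the length limit, the 2 anchors with most long loops, the longest chain and the 3 with most shorter loops inside, and the 3 largest rises and falls among pairs. The members, lists and rules were chosen with earlier results of these data known.

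Chromosomes X and Y were left out by the rule. No mm9 genome or annotation was used, so no sequences are printed.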

Additional observations from a re-analysis of the deposited data

How the results depend on the processing

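Of 57 alternatives to 13 results, 39 stayed within the main 95% interval and 18 left it, and the cause was not tested. Direction changed in 0, but a change was defined only for ratios of counts and the log2 ratio of strengths. Shares and median strengths had no direction to change. The alternatives without the chromosome 13 group, and the lowered depth for 200 to 500 kb loops, were chosen after seeing the data. The ratio of long loop counts (5.85) was 3.83 at lowered depth; that alternative did not recompute q-values. The resting share matched (62.5%) was 47.6% over 750 kb, 20.8% with anchors not widened, 77.8% without chromosome 13 and 76.9% without the group of 9 loops. The activated share (11.03%) was 3.56% with anchors not widened. Median strength of resting long loops (4.01) was 3.02 against the horizontal and 3.23 against the vertical background. That of activated ones (4.30) was 4.74 over 750 kb, 4.04 without low expected counts, and 4.04, 3.42 and 3.50 against the lower left, horizontal and vertical backgrounds. The activated share with a shared anchor (24.9%) was 11.5% over 750 kb and 18.1% with identical or touching anchors. The resting share over a shorter loop (58.3%) was 76.2% over 750 kb. With a limit of 10 expected contacts, low counts were found in 54.2% of resting and 68.3% of activated long loops. No paired analysis was possible because each state has 1 pooled list without replicate numbers; for the same reason no library could be left out. Long loops rest on few contacts (median 39.5 and 33), and both single strengths and counts of loops depend on them.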

Other observations

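Loops longer than 500 kb were also called on the sex chromosomes, which the rule leaves out. On chromosome Y they made up 15 of 37 loops in the resting list (40.5%) and 24 of 48 in the activated list (50.0%), with median strengths of 14.96 and 22.2 and lengths of 525 to 1610 kb in both. On chromosome X they were 2 of 15 and 3 of 58 loops, with strengths of 4.23 to 18.1 and of 6.02 to 33.3.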
